A study of Mus musculus with 20 samples.

Results

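The genes described here are 45 genes of DNA replication and S phase, the part of the cell cycle in which the genome is copied. Their symbols were matched to the gene identifiers of the deposited count table, which gave 45 of its 56941 rows. The filter on low counts kept 13755 genes, and all 45 were among them. RNA came from BV-2 cells, an immortalized line of mouse microglia, which are the resident macrophages of the brain. The cells were either wild type or labelled as a knockout of Rgs10, a regulator of G-protein signalling. Each genotype received medium alone (vehicle in the sample titles) or 10 ng/mL interferon-γ (IFNγ, a cytokine of T and natural killer cells) for 48 h. This makes 4 groups of 5 libraries, namely wild-type vehicle, wild-type IFNγ, knockout vehicle and knockout IFNγ. In every group replicates 1 to 3 were labelled batch 1, replicate 4 batch 2 and replicate 5 batch 3. The sources used here do not say how the knockout was made or whether it is 1 clone. Replicates are labelled as biological, with nothing on separate cultures, and p-values therefore cover only the variation among these libraries.

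Before S phase, the origin recognition complex with Cdc6 and Cdt1 loads the ring-shaped Mcm helicase onto DNA, and Cdc45 with the GINS complex later turns it into the helicase that opens the fork. Polymerase α and its primase start each strand, replication factor C places the sliding clamp Pcna, and polymerases δ and ε copy the bulk of the genome, while Fen1 and Lig1 finish the lagging strand. Most of these genes are transcribed near the start of S phase under E2F transcription factors, and IFNγ is known to slow the division of macrophages.

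Promoter sequences are shown because several of the genes carry the letters that E2F factors are known to bind. Whether these letters bear on the response to IFNγ was not tested. RefSeq windows of the GRCm38.p6 build, from 250 bases before to 50 bases after a gene's start, were found for 38 of the 45 genes. The letters TTTCCCGC, TTTCGCGC, TTTGCCGC or TTTGGCGC, read on either strand and with overlapping matches counted, were in the window of 15 of the 38 genes (39.5%). The same letters were in 4.71% of the 9898 tested genes with a window and in 2.6% of all 27025 genes with a window. A gene with several windows counted if any of them matched. Before the start alone they were in 10 of the 38 genes (26.3%), against 3.92% of tested genes and 2.16% of all genes with a window. CCAAT, the letters bound by NF-Y, was in the windows of 63.2% of the 38 genes, 43% of tested genes and 41.1% of all genes with a window. TTTGAA, the core of the CHR element of genes of late cell cycle, was in 13.2%, 14.6% and 20.2%. A match is a description of letters and not of binding. Stretches before the start of 8 genes follow, 5′ to 3′ on the gene's strand, with the E2F-type letters in capitals. The first 5 genes were called lower under IFNγ in both genotypes, and the last 3 (Orc1, Gins3 and Rfc3) were not called in wild-type cells.
Mcm5, chr8:75109326-75109397 (plus strand): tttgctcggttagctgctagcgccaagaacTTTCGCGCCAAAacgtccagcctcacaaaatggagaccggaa
Mcm6, chr1:128359715-128359845 (minus strand): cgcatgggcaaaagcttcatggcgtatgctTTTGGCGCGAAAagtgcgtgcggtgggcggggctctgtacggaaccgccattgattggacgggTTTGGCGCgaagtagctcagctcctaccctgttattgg
Mcm7, chr5:138172011-138172078 (minus strand): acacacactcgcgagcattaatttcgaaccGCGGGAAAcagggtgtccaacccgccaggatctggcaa
Cdc6, chr11:98907983-98908050 (plus strand): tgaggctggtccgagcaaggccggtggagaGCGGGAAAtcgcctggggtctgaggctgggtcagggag
Pola1, chrX:93632256-93632323 (minus strand): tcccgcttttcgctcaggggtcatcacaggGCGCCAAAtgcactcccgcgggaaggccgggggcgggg
Orc1, chr4:108579397-108579453 (plus strand): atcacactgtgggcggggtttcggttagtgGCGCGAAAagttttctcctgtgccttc
Gins3, chr8:95633488-95633555 (plus strand): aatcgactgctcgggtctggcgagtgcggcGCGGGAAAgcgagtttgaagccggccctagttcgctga
Rfc3, chr5:151651209-151651248 (minus strand): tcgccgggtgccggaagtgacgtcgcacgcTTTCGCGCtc

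In Mcm5, and in the first of its places in Mcm6, neighbouring matches on opposite strands overlap into a single run of capitals. Their first bases lie 153 and 149 bases before the start in Mcm5, and 110, 106 and 47 bases before it in Mcm6. Cdc6 and Pola1 each have a match 138 bases before the start, and Orc1 has one at 27 bases. The matches of Cdt1 and Pold1 lie after the start, so no stretch of theirs is shown.

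The libraries held 15866749 to 29157740 counted reads. Levels below are in CPM, read counts scaled to a common library size with TMM factors, and the 5 values of a group always stand in the order batch 1 (replicates 1, 2 and 3), batch 2, batch 3. Rgs10 itself was at 63 ± 6.62 CPM (SD, n = 5) in wild-type vehicle, 29.6 ± 11.7 in wild-type IFNγ, 28.2 ± 4.56 in knockout vehicle and 24.4 ± 14.7 in knockout IFNγ libraries. It was lower in knockout than wild-type cells under vehicle (log2 difference −1.17, edgeR adjusted p = 3.23e-05) and not called under IFNγ (−0.33, adjusted p = 0.134), so the transcript level does not separate the labels under IFNγ. All 12 microglia and macrophage markers had reads in every group, with summed levels of 2430 to 3060 CPM in wild-type vehicle, 3050 to 4900 in wild-type IFNγ, 1950 to 2540 in knockout vehicle and 2630 to 3140 in knockout IFNγ libraries, and the summed level of each list of other cell types stayed at or below 6.39 CPM. Single markers of that list differed between the groups, which the sum hides. In the order wild-type vehicle, wild-type IFNγ, knockout vehicle and knockout IFNγ, the means of Fcrls were 23.5, 1.46, 1.27 and 0.108 CPM. Those of Aif1 were 23.9, 121, 3.36 and 55.2 CPM, those of Cx3cr1 86.1, 1.03, 70.7 and 2.9 CPM, and those of Ptprc 254, 439, 315 and 438 CPM. The 4 IFNγ libraries of batches 2 and 3 stood apart from the other 16. Their TMM factors were 0.63 and 0.76 in wild type and 0.89 and 0.88 in knockout, against 1.01 to 1.12 elsewhere, and their Malat1 (a nuclear non-coding RNA) was at 1510, 955, 1450 and 1000 CPM, against 51.4 to 386 CPM elsewhere. Results are therefore given over all libraries and in batch 1 alone, and the part of these library features in the results was not tested. Within a group, counts of batch 1 libraries differed from each other by a chi-square per degree of freedom of 3.69 to 14.4. Between batch 1 and later batches it was 36.2 to 397. Adjusted p-values of batch 1 alone rest on this small spread within a single batch and do not cover the spread between batches.

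The summed level of the 45 genes was 5540 ± 1830 CPM (SD, n = 5) in wild-type vehicle and 2760 ± 930 CPM in wild-type IFNγ libraries, and 6100 ± 857 and 4330 ± 1620 CPM in the same groups of knockout cells. By library it was 6765, 6865, 6950, 3917 and 3178 CPM in wild-type vehicle and 3268, 3476, 3565, 1865 and 1645 CPM in wild-type IFNγ libraries. In knockout cells it was 6754, 6731, 6688, 5014 and 5334 CPM under vehicle and 5507, 5578, 5445, 2797 and 2345 CPM under IFNγ. Within each of the 3 batches the IFNγ library or libraries lay below the vehicle ones in both genotypes, and under IFNγ every knockout library lay above every wild-type library of its batch. Across batches the wild-type groups overlapped only through vehicle replicate 5, whose 3178 CPM was below all 3 batch 1 IFNγ libraries, and vehicle libraries of batches 2 and 3 were below those of batch 1 in both genotypes. Mki67, a marker of dividing cells, was at 433, 446, 388, 261 and 265 CPM in wild-type vehicle and 169, 177, 174, 54 and 16.9 CPM in wild-type IFNγ libraries. In knockout cells it was at 418, 461, 528, 262 and 219 CPM under vehicle and 232, 266, 261, 297 and 174 CPM under IFNγ, so in batch 2 of the knockout cells it was higher with IFNγ, where the sum of the 45 genes was lower. In bulk RNA, fewer cells in S phase and less of these transcripts in each cell cannot be told apart.

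**Figure D1:**
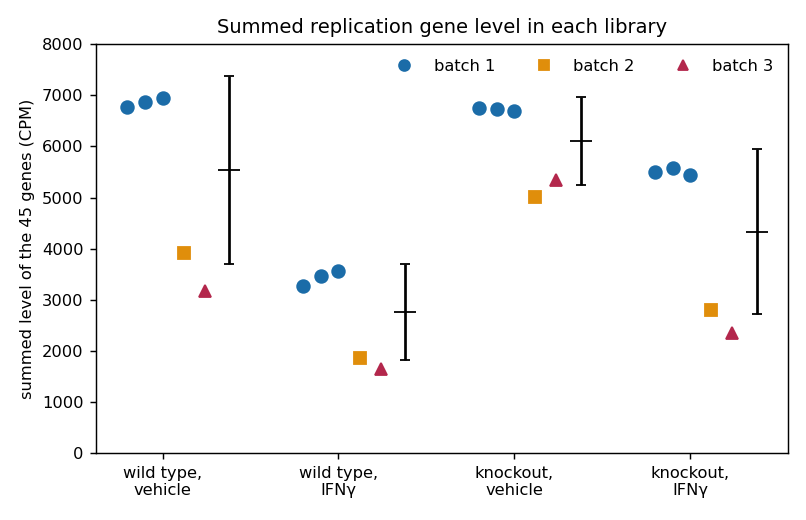
Summed level of the 45 replication genes in each library, in CPM (y axis), for the 4 groups; circles, squares and triangles are batches 1, 2 and 3, and the bars are the mean ± SD over 5 libraries. The wild-type IFNγ libraries lie between 1645 and 3565 CPM and the knockout IFNγ libraries between 2345 and 5578 CPM, with batches 2 and 3 lowest in every group.

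In wild-type cells IFNγ lowered most of the replication machinery, with the largest drops in the GINS subunit Gins1 and the helicase subunits Mcm7 and Mcm2. Of the 45 genes, 36 were called lower (edgeR quasi-likelihood test, adjusted p under 0.05 over all tested genes), 1 was called higher and 8 were not called. Among all 13755 tested genes 58.9% were called, 29.9% lower and 29.0% higher. The median log2 change of the 45 was −1.28, against 0.01 over all tested genes. With library totals in place of TMM the median of all tested genes moved by −0.21, and all-gene calls went from 3986 higher and 4115 lower to 2823 higher and 4875 lower. The exceptions were Cdt1, which rose, and Orc1, Gins3, Pcna, Rfc3, Prim1, Fen1, Slbp and E2f2, which were not called.

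All 6 helicase genes fell. Mcm2 was at 316, 317, 312, 176 and 136 CPM under vehicle and 95.6, 116, 109, 12.3 and 13.6 CPM under IFNγ. The highest IFNγ value was below the lowest vehicle value, and the 2 IFNγ libraries of batches 2 and 3 were far below the other 3. Its level was 4.54-fold lower (log2 change −2.18 ± 0.34, SE, edgeR adjusted p = 2.1e-05), with within-batch differences of −1.56, −3.78 and −3.28 in batches 1, 2 and 3. Mcm5 was at 373, 374, 433, 189 and 135 CPM under vehicle and 128, 139, 141, 25.7 and 23 CPM under IFNγ, so the groups overlapped only across batches, where vehicle replicate 5 lay below IFNγ replicates 2 and 3. It fell by 1.93 on the log2 scale (edgeR adjusted p = 5.4e-06). Mcm6 went from 610, 610, 603, 300 and 242 CPM to 194, 208, 207, 27.8 and 27.3 CPM, and Mcm7 from 292, 300, 302, 186 and 146 CPM to 94.4, 104, 106, 11.9 and 13.6 CPM. Neither of them had overlapping groups. Their log2 changes were −2.17 ± 0.31 SE, edgeR adjusted p = 7.5e-06, and −2.21 ± 0.34 SE, edgeR adjusted p = 1.8e-05. Mcm3 changed by −1.90 (adjusted p = 0.00012) and Mcm4 by −1.65 (adjusted p = 8.1e-06). Reads of Mcm7 and of Cops6 and Ap4m1, which overlap it on the other strand, cannot be told apart if strand was not used in counting.

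The genes that load the helicase did not move as a group. Cdc6, the loading ATPase, was at 73.7, 74.7, 80.4, 40.6 and 28.6 CPM under vehicle and 46, 49.1, 52.4, 5.69 and 5.01 CPM under IFNγ. The batch 1 values of the groups were apart, and the IFNγ values of batches 2 and 3 were at 5.69 and 5.01 CPM, far below the 46 to 52.4 CPM of batch 1. Its log2 change was −1.28 ± 0.38 SE, edgeR adjusted p = 0.0075. Cdt1, the loading factor that is destroyed once S phase begins, went the other way, at 244, 234, 239, 186 and 176 CPM under vehicle and 285, 297, 307, 417 and 437 CPM under IFNγ. Every IFNγ library was above every vehicle library. Cdt1 rose 1.62-fold (0.70 ± 0.13 SE, edgeR adjusted p = 0.00019), with within-batch differences of 0.31, 1.16 and 1.31. Cdt1 overlaps the gene model Gm20388, and its reads are uncertain to that extent. Of the origin recognition complex, Orc6 fell (−0.71, adjusted p = 0.002) and the low-level Orc1, at 1.79 to 9.95 CPM, was not called (−0.30, adjusted p = 0.38).

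Of the 5 genes that activate the helicase, 4 fell. Gins1 had the largest change of the 45, from 58.2, 56.6, 63.2, 26.9 and 22.6 CPM to 10.9, 12, 13.8, 4.83 and 3.71 CPM. Every IFNγ library was below every vehicle library, and the within-batch differences of −2.24, −2.36 and −2.46 were alike. It was 5.14-fold lower (−2.36 ± 0.23 SE, edgeR adjusted p = 7.3e-08). Cdc45 was at 81.3, 75, 72.8, 38.5 and 33.8 CPM under vehicle and 54.3, 60.2, 58.8, 5.77 and 6.5 CPM under IFNγ. Here the batches differed, with within-batch differences of −0.40, −2.64 and −2.29, and the log2 change over all was −0.99 ± 0.33 SE, edgeR adjusted p = 0.015. Mcm10, which helps Cdc45 onto the origin, changed by −1.90 (adjusted p = 0.00045), with its IFNγ libraries at 56.4 to 60.5 CPM in batch 1 and at 2.96 and 3.65 CPM in batches 2 and 3. Gins2 changed by −1.23 (adjusted p = 3e-06), and Gins3 was not called (−0.11, adjusted p = 0.63). On the other strand Cdc45 overlaps Ufd1, and Gins2 overlaps Gse1 and Gm20388, with the same limit on their reads.

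The sliding clamp and its loader split. Pcna, the clamp, was at 308, 306, 321, 183 and 128 CPM under vehicle and 250, 254, 263, 466 and 351 CPM under IFNγ. In batch 1 the IFNγ libraries were the lower ones, and in batches 2 and 3 they were the higher ones, with differences of −0.28, 1.35 and 1.45. Over all libraries it was not called (0.39 ± 0.21 SE, edgeR adjusted p = 0.12). Pcna has named pseudogenes, with which it may share reads. Rfc1, the large loader subunit, went from 163, 178, 153, 128 and 113 CPM to 90.1, 89.5, 92.4, 82.7 and 57.9 CPM without overlap and fell in all batches (−0.86, −0.63 and −0.96), with a log2 change of −0.83 ± 0.12 SE, edgeR adjusted p = 7e-06. Rfc4 fell from 42.1, 44.1, 44, 32.9 and 28.7 CPM to 17.8, 17.1, 19, 9.59 and 8.79 CPM and Rfc5 from 132, 123, 127, 88.5 and 90.2 CPM to 38.8, 46.2, 45, 26.8 and 15.2 CPM, both without overlap (−1.45, adjusted p = 1.2e-06, and −1.76, adjusted p = 2.4e-07). Rfc3 was at 37.2, 39.3, 44.1, 20.3 and 18.7 CPM under vehicle and 32.6, 31.1, 31.5, 18.5 and 16.6 CPM under IFNγ, with overlapping groups, and was not called (−0.27, adjusted p = 0.11). Rfc2 was called lower (−0.63, adjusted p = 0.0087), although its within-batch differences were −1.15, 0.27 and −0.10. On the other strand Rfc2 overlaps Lat2, Rfc4 overlaps Eif4a2 and Rfc5 overlaps Wsb2, and their reads are uncertain to that extent.

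Among the polymerases and primases 5 of 6 fell. Pola1, the catalytic subunit of polymerase α, went from 110, 131, 110, 67.1 and 57.8 CPM to 50.2, 49.3, 50.3, 22.6 and 15.4 CPM without overlap (−1.41 ± 0.19 SE, edgeR adjusted p = 3.3e-06). Pold1, the catalytic subunit of polymerase δ, went from 130, 133, 134, 88 and 79.4 CPM to 43.8, 46.3, 55.1, 23.2 and 18.3 CPM, also without overlap, and was 3.15-fold lower (−1.65 ± 0.17 SE, edgeR adjusted p = 1.7e-07). Pole, its counterpart on the leading strand, fell by 1.63 on the log2 scale (adjusted p = 0.00045). Pola2, the regulatory subunit of polymerase α, changed least of those called, from 85.3, 81, 86.7, 65.9 and 61.1 CPM to 63.9, 70.6, 72.5, 44.5 and 53.9 CPM (−0.32, adjusted p = 0.015). The primase subunit Prim2 fell (−1.33, adjusted p = 7.3e-05), and the catalytic primase subunit Prim1, at 52.3 to 60.2 CPM in batch 1 and 9.82 and 5.94 CPM in batches 2 and 3 under IFNγ, was not called (−0.74, adjusted p = 0.083).

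The single-strand binding subunits Rpa1 (−1.02, adjusted p = 1.3e-05) and Rpa2 (−0.76, adjusted p = 0.00029) and the ligase Lig1 (−1.87, adjusted p = 6.9e-05) fell. Fen1, the flap endonuclease, was at only 1.78, 0.922, 1.33, 0.461 and 0.168 CPM under vehicle and 0.341, 1.02, 0.813, 0.156 and 0.433 CPM under IFNγ. These levels overlap and the gene was not called (−0.65, adjusted p = 0.22). Fen1 overlaps Tmem258 and Gm10143 on the other strand, and reads that fall in the overlap may not have been counted for it, so its level is uncertain.

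All 4 genes of nucleotide supply fell. Rrm2, the S-phase subunit of ribonucleotide reductase, went from 142, 143, 149, 52.2 and 39.2 CPM to 98.2, 111, 108, 5.61 and 1.67 CPM. In batch 1 the drop was small and in batches 2 and 3 large, with differences of −0.45, −3.11 and −4.19. Its call (−1.20 ± 0.49 SE, edgeR adjusted p = 0.043) was lost without any 1 of the 5 wild-type vehicle libraries or of wild-type IFNγ replicates 4 and 5 (Rrm2 adjusted p between 0.053 and 0.12), and also without knockout IFNγ replicates 1, 2, 4 or 5 (0.05). The other subunit, Rrm1, fell by 1.46 on the log2 scale (adjusted p = 1.6e-07). Tyms, which makes thymidylate, went from 72.8, 74.3, 86, 38.7 and 29.3 CPM to 30.7, 31.4, 35, 3.2 and 2.97 CPM (−1.81 ± 0.35 SE, edgeR adjusted p = 0.0002), and Tyms has a named pseudogene. Dut, which removes dUTP, went from 139, 126, 143, 59.1 and 44.7 CPM to 43.6, 45.5, 50.7, 7.09 and 1.98 CPM (−2.09, adjusted p = 6.3e-05). For Tyms and Dut the groups overlapped only through vehicle libraries of batch 3.

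Of the chromatin genes, Uhrf1, which brings the maintenance methyltransferase to new DNA, went from 359, 366, 371, 170 and 121 CPM to 139, 147, 156, 19.6 and 11.3 CPM (−1.91 ± 0.34 SE, edgeR adjusted p = 8.9e-05). The histone chaperone subunits Chaf1a (−1.13, adjusted p = 7.7e-06) and Chaf1b (−0.98, adjusted p = 2.1e-06) fell without overlap. Slbp, which binds the stem-loop of histone mRNA, was at 76.4, 78.8, 71.9, 50.7 and 41.7 CPM under vehicle and 74, 75.6, 74, 25.3 and 36.7 CPM under IFNγ and was not called (−0.21, adjusted p = 0.28). Its batch 1 libraries lay between 71.9 and 78.8 CPM in both groups. The fork protection pair Timeless (−1.77, adjusted p = 3.4e-06) and Tipin (−1.40, adjusted p = 0.0001) fell. Brca1, of homologous recombination, went from 71.7, 75.2, 62.3, 52.8 and 42.8 CPM to 52.1, 52, 51.9, 18.9 and 22.6 CPM (−0.69 ± 0.16 SE, edgeR adjusted p = 0.0013). Brca2, another gene of homologous recombination, went from 28.1, 32.5, 24.2, 24.4 and 21.2 CPM to 17.5, 14.8, 15.7, 0.624 and 0.557 CPM without overlap (−1.85 ± 0.46 SE, edgeR adjusted p = 0.0021).

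The activator E2f1 fell and E2f2 did not pass the test. E2f1 was at 84.9, 88.4, 91.9, 78.6 and 56.9 CPM under vehicle and 48.9, 48.7, 52.7, 38.4 and 38.4 CPM under IFNγ, with every IFNγ library below every vehicle library and within-batch differences of −0.81, −1.03 and −0.56 (−0.82 ± 0.12 SE, edgeR adjusted p = 9e-06). E2f2 was at 57.7, 60.4, 61.6, 55.9 and 42.5 CPM under vehicle and 56.6, 54, 68.5, 56.5 and 39.8 CPM under IFNγ, with groups that overlapped almost entirely (−0.02, adjusted p = 0.91).

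Counted library by library, 16 of the 45 genes had all IFNγ libraries below all vehicle libraries and 1 (Cdt1) had them above, where 36.2% of tested genes had groups that did not overlap, 18.2% lower and 18.0% higher. In batch 1 alone 39 genes were called lower and 1 higher, with a median of −0.96, where 74.0% of 13833 tested genes were called, 36.7% lower and 37.4% higher. Of the 37 calls over all libraries, 28 were kept in all 29 settings tried. Without a batch term in the fit the calls of Orc6 (adjusted p = 0.13), Cdc6 (0.22), Cdc45 (0.27), Pola2 (0.083), Rpa2 (0.05), Rrm2 (0.46), Brca1 (0.052) and Brca2 (0.065) were lost.

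**Figure D2:**
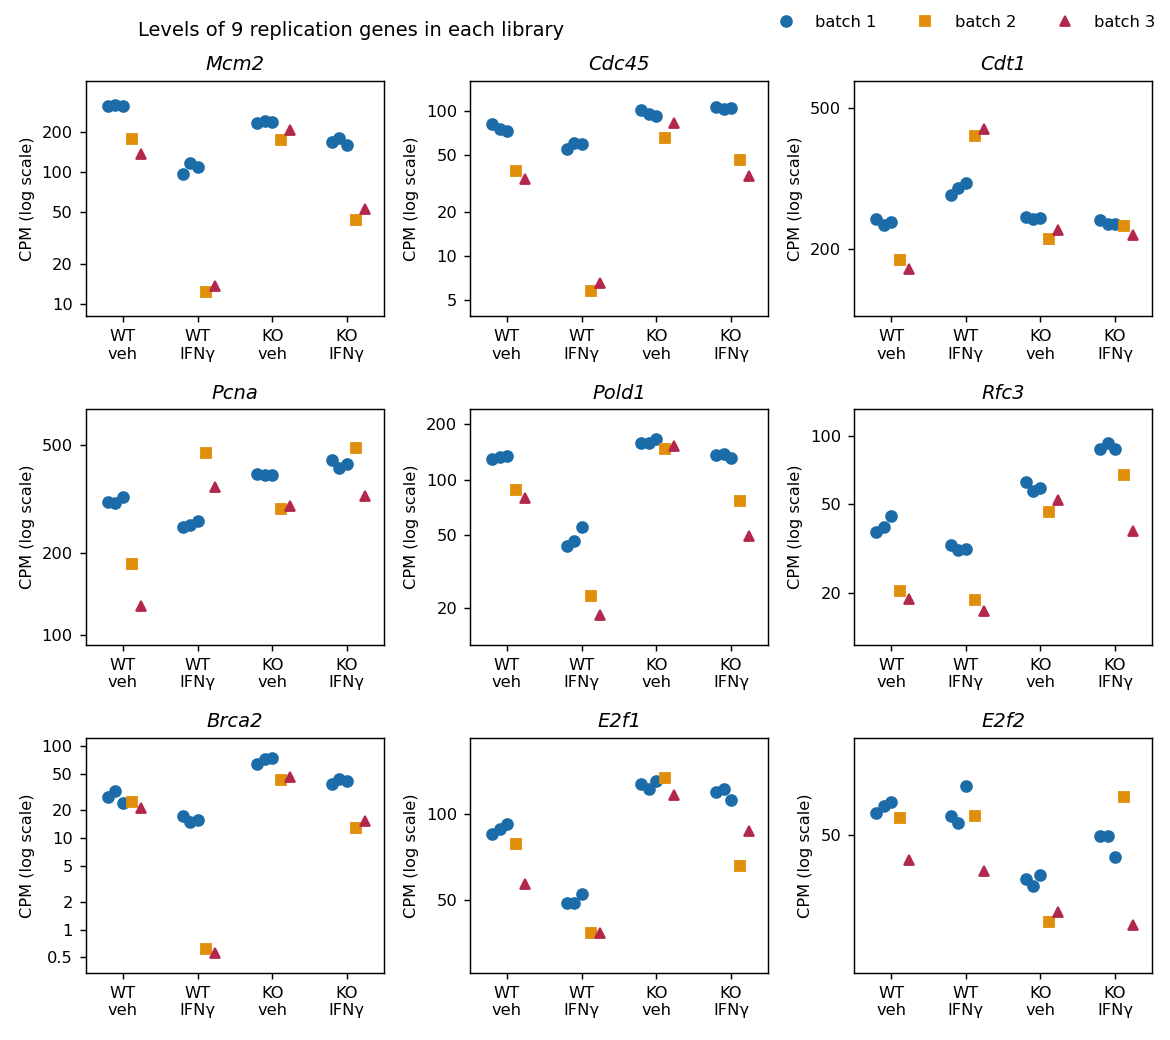
Level of 9 of the genes in each library, in CPM on a log axis, by group (WT wild type, KO knockout, veh vehicle); symbols are the 3 batches. Mcm2 and Brca2 drop farthest under IFNγ in wild-type replicates 4 and 5 (12.3 and 13.6 CPM, and 0.624 and 0.557 CPM), where Cdt1 and Pcna are instead at their highest wild-type levels (417 and 437 CPM, and 466 and 351 CPM).

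In knockout cells IFNγ lowered the helicase genes, most of nucleotide supply and Gins1, while most loading and activating factors did not pass the test. Of the 45, 25 were called lower, 2 higher (Rfc3 and E2f2) and 18 were not called, where 43.2% of all tested genes were called, 21.8% lower and 21.4% higher. The median log2 change was −0.67, against −0.02 over all tested genes. All 6 helicase genes fell, as did 3 of 4 genes of nucleotide supply and 3 of 4 of fork protection and repair. Of the genes that load or activate the helicase only Cdc6 and Gins1 fell, and Cdt1, Cdc45, Gins2, Gins3, Mcm10, Orc1 and Orc6 were not called.

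The largest drops were those of Dut, Mcm6 and Gins1. Dut was at 89.4, 80.1, 83.9, 58.4 and 57.2 CPM under vehicle and 43.1, 41.5, 41.8, 14.5 and 9.6 CPM under IFNγ, with all IFNγ libraries below all vehicle libraries (−1.62 ± 0.36 SE, edgeR adjusted p = 0.0012). Mcm6 went from 609, 612, 605, 386 and 408 CPM to 347, 357, 352, 62.8 and 77.9 CPM, and Gins1 from 64.7, 60.8, 57.8, 45.3 and 46.1 CPM to 34.9, 34.9, 36.5, 14.5 and 5.64 CPM. Both had no overlap and within-batch differences of −0.79, −2.61 and −2.38 for Mcm6 and −0.78, −1.61 and −2.92 for Gins1. They fell by 1.53 (adjusted p = 0.0005) and 1.38 (adjusted p = 6.9e-05) on the log2 scale. Mcm2 went from 233, 243, 238, 173 and 207 CPM to 168, 180, 160, 42.9 and 52.3 CPM (−1.19 ± 0.33 SE, edgeR adjusted p = 0.0069). Mcm5 went from 279, 280, 277, 200 and 210 CPM to 219, 223, 206, 54.6 and 49.1 CPM (−1.09 ± 0.27 SE, edgeR adjusted p = 0.0027). For both, the batch 1 IFNγ libraries lay close to the vehicle libraries of batches 2 and 3, and the IFNγ libraries of batches 2 and 3 were far below all others. Mcm7 went from 362, 364, 356, 286 and 317 CPM to 250, 249, 240, 79.3 and 75.1 CPM without overlap (−1.20, adjusted p = 0.0062), Mcm3 from 616, 634, 605, 427 and 481 CPM to 460, 488, 472, 175 and 172 CPM (−0.87, adjusted p = 0.042), and Mcm4 changed by −0.97 (adjusted p = 0.0025).

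Of the loading factors neither Cdc6 nor Cdt1 was called in batch 1. Cdc6 was at 66.5, 59.8, 59.9, 46.2 and 47.6 CPM under vehicle and 57.8, 56.2, 59.2, 5.9 and 13.2 CPM under IFNγ, with within-batch differences of −0.10, −2.87 and −1.81. Its call (−1.04 ± 0.38 SE, edgeR adjusted p = 0.034) was made over all libraries, and the IFNγ libraries of batches 2 and 3 were far below the rest. Cdt1 was at 246, 244, 245, 213 and 227 CPM under vehicle and 242, 236, 235, 232 and 220 CPM under IFNγ, a log2 change of −0.01 with an adjusted p of 0.95. Cdc45 was at 102, 95.9, 91.8, 65 and 83.2 CPM under vehicle and 107, 103, 105, 45.9 and 35.7 CPM under IFNγ, slightly higher in batch 1 and lower in batches 2 and 3 (0.12, −0.50 and −1.21), and was not called over all (−0.36, adjusted p = 0.39). Gins2, another GINS subunit, was at 48.6, 46.8, 45, 36.7 and 35.3 CPM under vehicle and 43.6, 42.8, 42.2, 30.1 and 16 CPM under IFNγ and was not called (−0.38, adjusted p = 0.063).

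Pcna was at 389, 386, 386, 290 and 297 CPM under vehicle and 438, 411, 424, 484 and 324 CPM under IFNγ, higher with IFNγ in every batch (0.13, 0.74 and 0.13) but not called over all (0.25, adjusted p = 0.36). Rfc1 fell from 159, 161, 170, 137 and 135 CPM to 129, 133, 134, 67 and 97.9 CPM without overlap (−0.47 ± 0.12 SE, edgeR adjusted p = 0.0034). Rfc3 rose, from 62.5, 56.7, 58.8, 45.9 and 51.8 CPM to 87.5, 92.6, 87.5, 67 and 37.6 CPM (0.36 ± 0.14 SE, edgeR adjusted p = 0.048), although the libraries of batch 3 went the other way (0.58, 0.54 and −0.46). The small loader subunits therefore did not move as one. Rfc4 fell from 59.3, 58.9, 56.8, 52.5 and 53.9 CPM to 44.7, 43.1, 46.1, 20.8 and 14 CPM without overlap (−0.87, adjusted p = 0.00055). Rfc5 fell from 87.5, 82.4, 79.2, 92.4 and 89.6 CPM to 65.3, 64.6, 59.8, 51.1 and 26.6 CPM, also without overlap (−0.78, adjusted p = 0.0022). Of the polymerase catalytic subunits Pola1 and Pold1 fell, and Pole was not called (−0.80, edgeR adjusted p = 0.056). Pola1 went from 98.6, 100, 105, 74.5 and 73.9 CPM to 69.9, 75.9, 74.9, 18.3 and 34.4 CPM (−0.88 ± 0.19 SE, edgeR adjusted p = 0.00088). Pold1 went from 158, 159, 166, 147 and 152 CPM to 137, 138, 131, 76.5 and 49.4 CPM without overlap (−0.68 ± 0.17 SE, edgeR adjusted p = 0.003). The drop of Pold1 was small in batch 1 and large in batches 2 and 3 (−0.25, −0.93 and −1.61). Pola2 was at 65.8, 59, 59.4, 53.5 and 65.3 CPM and 77.4, 72.2, 69.2, 64.9 and 54.4 CPM and was not called (0.15, adjusted p = 0.27).

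Rrm2 was at 85.7, 88.3, 89.4, 53.7 and 61.9 CPM under vehicle and 103, 99.6, 96.4, 18.4 and 20 CPM under IFNγ, higher in batch 1 and lower in batches 2 and 3 (0.18, −1.52 and −1.60), and was not called (−0.70, adjusted p = 0.25). The constant subunit of the same enzyme fell in all batches. Rrm1 went from 440, 438, 424, 265 and 275 CPM to 331, 351, 341, 99.4 and 122 CPM (−0.74, adjusted p = 0.00056). Tyms went from 94.9, 90.3, 87.2, 62.6 and 68.7 CPM to 70.8, 68.8, 70.4, 38.1 and 15.5 CPM (−0.86 ± 0.34 SE, edgeR adjusted p = 0.047). Uhrf1 went from 289, 304, 298, 179 and 216 CPM to 227, 228, 221, 53.1 and 48.1 CPM (−1.13 ± 0.33 SE, edgeR adjusted p = 0.01). In both genes the IFNγ libraries of batches 2 and 3 were the lowest of the knockout libraries. Fen1 was at 0.433, 0.843, 0.991, 0.428 and 0.485 CPM under vehicle and 0.757, 0.457, 0.899, 0.284 and 0.349 CPM under IFNγ (−0.28, adjusted p = 0.64). Slbp was at 68.2, 63, 62.8, 57.6 and 61 CPM under vehicle and 64.4, 66.9, 65.9, 49.6 and 48.2 CPM under IFNγ and was not called (−0.11, adjusted p = 0.59). Brca1 was at 64.4, 70, 68.2, 66 and 60.8 CPM under vehicle and 68.7, 74.3, 70.9, 46.4 and 40.6 CPM under IFNγ and was not called (−0.20, adjusted p = 0.34). For Slbp and Brca1 the batch 1 libraries of both groups lay close together. Brca2 went from 63.5, 71.3, 73.5, 43.1 and 45.7 CPM to 38.8, 43.8, 41.4, 12.9 and 15.1 CPM and fell by 1.15 on the log2 scale (adjusted p = 0.038).

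E2f1 was at 127, 122, 130, 133 and 116 CPM under vehicle and 119, 122, 112, 66 and 87.4 CPM under IFNγ and fell slightly (−0.34 ± 0.12 SE, edgeR adjusted p = 0.024), and was lower with IFNγ in every batch, least in batch 1. E2f2 was at 37.6, 36, 38.7, 28.7 and 30.6 CPM under vehicle and 49.7, 49.8, 43.5, 63.6 and 28 CPM under IFNγ and rose (0.42 ± 0.13 SE, edgeR adjusted p = 0.014). Its values were higher with IFNγ in batches 1 and 2 and lower in batch 3 (0.34, 1.13 and −0.13). Without a call were also Orc1 (0.12, adjusted p = 0.75), Orc6 (−0.34, adjusted p = 0.13), Mcm10 (−0.75, adjusted p = 0.12), Gins3 (−0.36, adjusted p = 0.13), Rfc2 (−0.22, adjusted p = 0.36), Prim1 (−0.14, adjusted p = 0.78), Pole (−0.80, adjusted p = 0.056), Rpa2 (−0.36, adjusted p = 0.066) and Lig1 (−0.66, adjusted p = 0.096).

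All knockout IFNγ libraries lay below all knockout vehicle libraries for 8 of the 45 genes and above them for none, where 27.6% of tested genes did not overlap, 14.2% lower and 13.4% higher. In batch 1 alone 27 genes were called lower and 8 higher (Orc1, Cdc45, Pcna, Rfc3, Pola2, Prim1, Rrm2 and E2f2), with a median of −0.21, where 56.6% of tested genes were called, 28.4% lower and 28.1% higher. Rfc3 in batch 1 rose by 0.61 (adjusted p = 3.5e-09) and Rrm2 by 0.20 (adjusted p = 0.0018). The calls over all libraries were sensitive to single libraries. Without knockout vehicle replicate 5, 16 genes remained lower, and Mcm3, Cdc6, Prim2, Tyms, Uhrf1, Timeless, Tipin, Brca2 and E2f1 lost their calls (adjusted p from 0.053 for Tipin to 0.21 for Tyms). Mcm3, Cdc6, Prim2, Tyms, Timeless, Brca2, E2f1, Rfc3 and E2f2 lost theirs without knockout vehicle replicate 4 (from 0.054 for Timeless to 0.13 for Mcm3). Without knockout IFNγ replicate 4 the losses were Mcm3, Cdc6, Rfc3, Brca2, E2f1 and E2f2 (from 0.053 for E2f2 to 0.15 for Rfc3), and without replicate 5 they were Mcm3, Cdc6, Prim2, Tyms, Timeless and Brca2 (from 0.053 for Timeless to 0.14 for Tyms). Without any 1 of knockout IFNγ replicates 1 to 3, Mcm3, Rfc3, Tyms and Brca2 were lost (from 0.053 for Brca2 to 0.092 for Rfc3). Rfc3, Tyms or both were lost without 12 other single libraries (adjusted p from 0.05 for Tyms to 0.14 for Rfc3). With no batch term 1 gene was called lower and none higher.

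Under vehicle the genotypes differed at few of the genes over all libraries, with the loader subunits Rfc3 and Rfc4, Pold1 and E2f1 higher in knockout cells and E2f2 and Pola2 lower. That is 4 of 45 called higher, 2 lower and 39 not called, where 27.3% of tested genes were called, 12.5% higher and 14.8% lower. The median log2 difference, knockout minus wild type, was 0.17, against 0.03 over all tested genes. This comparison uses the same vehicle libraries as the IFNγ comparisons above.

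Rfc3 had the largest difference among those called. Its 37.2, 39.3, 44.1, 20.3 and 18.7 CPM in wild-type and 62.5, 56.7, 58.8, 45.9 and 51.8 CPM in knockout vehicle libraries did not overlap (0.88 ± 0.15 SE, edgeR adjusted p = 0.00012). The within-batch differences were 0.56, 1.16 and 1.45. E2f1 was likewise higher in every knockout vehicle library, at 116 to 133 CPM against 56.9 to 91.9 CPM (0.67 ± 0.12 SE, edgeR adjusted p = 0.00024). E2f2 was lower in every one, at 28.7 to 38.7 CPM against 42.5 to 61.6 CPM (−0.68 ± 0.13 SE, edgeR adjusted p = 0.00052). The activators E2f1 and E2f2 thus stood on opposite sides between the genotypes. Rfc4 was at 52.5 to 59.3 CPM in knockout and 28.7 to 44.1 CPM in wild-type libraries (0.60 ± 0.17 SE, edgeR adjusted p = 0.014), and Pold1 at 147 to 166 CPM and 79.4 to 134 CPM (0.54 ± 0.17 SE, edgeR adjusted p = 0.02), neither overlapping. Pola2 was at 53.5 to 65.8 CPM and 61.1 to 86.7 CPM, which overlap (−0.31 ± 0.11 SE, edgeR adjusted p = 0.036). Brca2 and Prim2 had groups that did not overlap, at 43.1 to 73.5 against 21.2 to 32.5 CPM for Brca2, yet they were not called (1.13, adjusted p = 0.059, and 0.61, adjusted p = 0.052).

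Counted by library, 6 genes were above and 1 below without overlap, where 24.9% of tested genes did not overlap, 11.8% higher and 13.2% lower. Batch 1 alone gave more calls in both directions, 12 higher and 18 lower, with a median of −0.09, where 58.4% of tested genes were called, 28.4% higher and 30% lower. In that batch Mcm3 (0.53, adjusted p = 2.7e-10) and Mcm7 (0.26, adjusted p = 1.8e-05) of the helicase were higher in knockout cells and Mcm2 (−0.41, adjusted p = 3.6e-07) and Mcm5 (−0.51, adjusted p = 6e-09) lower. Rrm2 (−0.73, adjusted p = 4.4e-12) and Dut (−0.70, adjusted p = 2.3e-10) were lower too, and Brca2 was higher by 1.29 (adjusted p = 1.7e-12). In batches 2 and 3, with 1 library per group each, 6 and 2 of the 45 genes lay below 0, against 26 in batch 1. A test of this shift between batch 1 and the later batches called 15 genes higher and none lower in batches 2 and 3, where 5.58% of tested genes were called, 2.66% higher and 2.92% lower. The largest shifts were those of Orc1 (1.22, adjusted p = 0.021), Rrm2 (1.08, adjusted p = 0.027) and Gins3 (0.92, adjusted p = 0.014). The p-values of this test draw mostly on the spread among batch 1 replicates and cover little of the spread between batches. That count of 15 moved with many single libraries. It was 1 without wild-type vehicle replicate 5, 2 without knockout vehicle replicate 5, 6 to 7 without wild-type vehicle replicate 1, 2 or 3, and 4 to 7 without knockout vehicle replicate 1, 2 or 3. It was 24 without wild-type IFNγ replicate 4 or 5, 28 without knockout vehicle replicate 4, and 32 and 33 without knockout IFNγ replicate 4 and 5. The calls of Pold1 and Rfc4 were lost without knockout vehicle replicate 5 (adjusted p = 0.11 and 0.075) and without replicate 4 (0.067 for Pold1 and 0.05 for Rfc4). That of Pola2 was lost without any 1 of wild-type vehicle replicates 1 to 4 or knockout vehicle replicates 1 to 4 (0.056 to 0.11 for Pola2). Without knockout vehicle replicate 5, 2 genes were called higher and 4 lower, and without wild-type IFNγ replicate 4 or 5, 8 and 7 were called higher.

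Under IFNγ most of the genes were at higher levels in knockout than in wild-type cells, led by Mcm3, Brca2 and Mcm7, and Cdt1 was lower. Of the 45, 31 were called higher, 1 lower and 13 not called, where 39.0% of tested genes were called, 20% higher and 19.0% lower. The median log2 difference was 0.78, against 0.01 over all tested genes. All 6 helicase genes and all 4 of fork protection and repair were higher, as were 4 of 5 helicase activators, 5 of 6 clamp and loader genes and 4 of 6 polymerase and primase genes. The libraries under IFNγ are those of the IFNγ comparisons above.

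Mcm3 was at 169, 184, 193, 20.8 and 16.7 CPM in wild-type and 460, 488, 472, 175 and 172 CPM in knockout IFNγ libraries, higher in knockout cells within every batch (1.38, 3.04 and 3.32), and 3.61-fold higher over all (1.85 ± 0.34 SE, edgeR adjusted p = 0.0003). Brca2, at 0.557 to 17.5 CPM in wild type and 12.9 to 43.8 CPM in knockout, was 3.54-fold higher (1.83 ± 0.45 SE, edgeR adjusted p = 0.0032). Its difference was far larger in batches 2 and 3 than in batch 1 (1.34, 3.57 and 3.89). Mcm7 was 3.03-fold higher (1.60 ± 0.33 SE, edgeR adjusted p = 0.00076). Of the genes with small spread, Rfc3 was at 16.6 to 32.6 CPM in wild type and 37.6 to 92.6 CPM in knockout (1.51 ± 0.15 SE, edgeR adjusted p = 1.7e-07), and E2f1 at 38.4 to 52.7 CPM and 66 to 122 CPM (1.15 ± 0.12 SE, edgeR adjusted p = 4.3e-07). Neither overlapped. Pold1 was higher by 1.51 (adjusted p = 1.2e-06), Tyms by 1.56 (adjusted p = 0.0014), Mcm10 by 1.49 (adjusted p = 0.0055), Gins1 by 1.42 (adjusted p = 6.2e-05) and Cdc45 by 1.33 (adjusted p = 0.0035). Cdt1, at 285 to 437 CPM in wild type and 220 to 242 CPM in knockout, was lower in every knockout library (−0.58 ± 0.13 SE, edgeR adjusted p = 0.0017).

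The 13 genes not called were Orc1 (0.68, adjusted p = 0.067), Orc6 (0.32, adjusted p = 0.17), Cdc6 (0.35, adjusted p = 0.49), Gins3 (−0.01, adjusted p = 0.97), Pcna (0.37, adjusted p = 0.18), Pola2 (0.16, adjusted p = 0.26), Prim1 (0.40, adjusted p = 0.41), Rpa2 (0.12, adjusted p = 0.58), Fen1 (−0.01, adjusted p = 0.99), Rrm2 (0.37, adjusted p = 0.57), Dut (0.23, adjusted p = 0.63), Slbp (0.12, adjusted p = 0.6) and E2f2 (−0.25, adjusted p = 0.14). Rrm2 and Dut were thus not called here, although the other enzymes of nucleotide supply, Rrm1 (0.95, adjusted p = 5.3e-05) and Tyms, were higher. For Rrm2 the within-batch differences were −0.09, 1.63 and 3.24. In batch 1 its libraries were at 98.2 to 111 CPM in wild type and 96.4 to 103 CPM in knockout, and in batches 2 and 3 at 5.61 and 1.67 CPM against 18.4 and 20 CPM.

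Knockout libraries lay above wild-type libraries without overlap for 2 genes and below for 1, where 15.1% of tested genes did not overlap, 6.53% higher and 8.57% lower. In batch 1 alone 33 were called higher and 5 lower (Cdt1, Gins3, Prim1, Slbp and E2f2), with a median of 0.69, where 69.3% of tested genes were called, 35.8% higher and 33.5% lower. Mcm3, Mcm7, Cdt1, Gins2, Rfc3, Prim2, Pold1 and E2f1 kept their calls in all 29 settings. Without wild-type IFNγ replicate 5, 24 were called higher. Mcm2, Mcm5, Mcm6, Pola1, Rpa1, Uhrf1 and Tipin then lost their calls (adjusted p from 0.051 for Mcm6 to 0.1 for Pola1), and Mcm2, Mcm5, Pole and Uhrf1 did so without wild-type IFNγ replicate 4 (from 0.06 for Pole to 0.1 for Uhrf1). Without knockout IFNγ replicate 1, 2 or 3 the losses were Rfc2, Pola1, Rpa1 and Uhrf1, with Mcm2 and Mcm5 for replicates 1 and 2 (from 0.052 for Mcm2 to 0.1 for Rpa1). Without wild-type IFNγ replicate 1, 2 or 3 they were Rfc2 and Rpa1 (0.06 for Rpa1 to 0.14 for Rfc2). Rfc2 was lost without knockout IFNγ replicate 4 (0.066), when 2 genes were called lower, and without 6 single vehicle libraries (0.053 to 0.056), and Pola1 without knockout IFNγ replicate 5 (0.057).

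**Figure D3:**
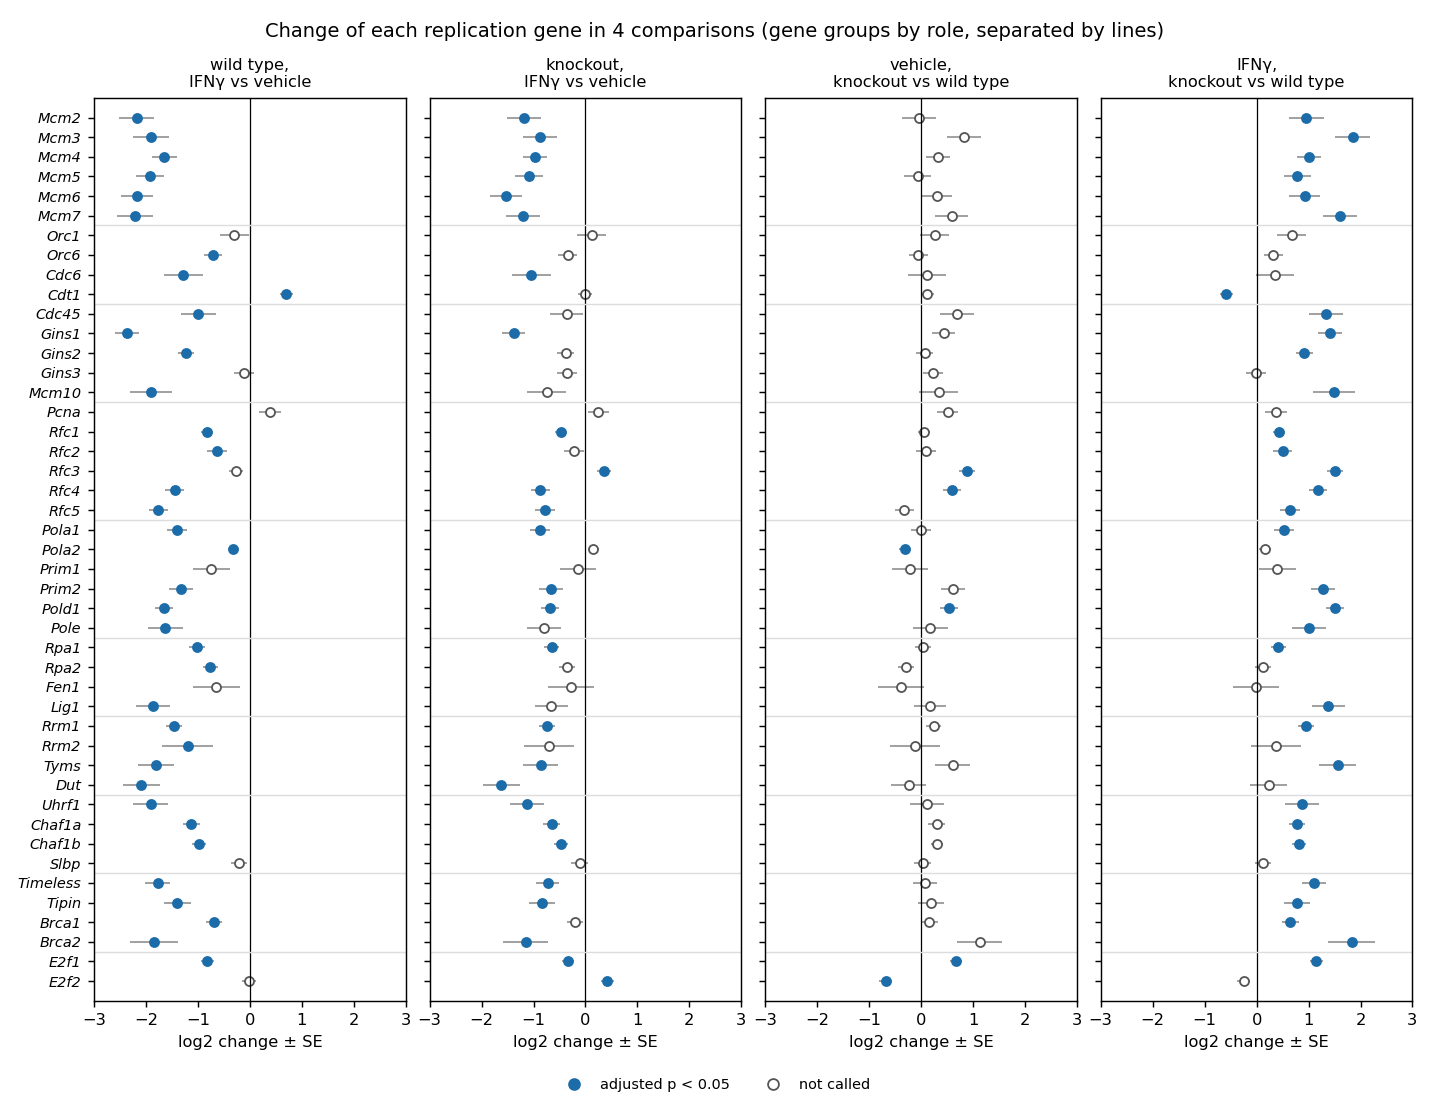
Fitted log2 change ± SE of each of the 45 genes (rows, grouped by role) in the 4 comparisons (panels); filled points are called at an adjusted p under 0.05, open points are not. In wild type 36 genes are called lower with IFNγ and in knockout 25, and under IFNγ 31 are called higher in knockout than in wild type, with Cdt1 the one called lower.

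The difference between the genotypes in the response to IFNγ was tested as an interaction, knockout response minus wild-type response. Over all libraries 4 of the 45 genes had a positive and 1 a negative interaction, where 6.50% of tested genes were called, 3.64% positive and 2.86% negative. The median was 0.58, against 0.02 over all tested genes. Rfc5 (0.98 ± 0.26 SE, edgeR adjusted p = 0.029), Pold1 (0.97 ± 0.24 SE, edgeR adjusted p = 0.019), Gins2 (0.85 ± 0.23 SE, edgeR adjusted p = 0.029) and Rrm1 (0.71 ± 0.21 SE, edgeR adjusted p = 0.049) had a less negative response in knockout than in wild-type cells. For Cdt1, which rose in wild-type cells and was not called in knockout cells, the interaction was −0.71 ± 0.19 SE, edgeR adjusted p = 0.029. No helicase gene passed the test, although their interactions ran from 0.64 (Mcm6, adjusted p = 0.41) to 1.03 (Mcm3, adjusted p = 0.21), and the spread of these genes over batches was large. In batch 1 alone 39 were positive and 1 (Cdt1) negative, with a median of 0.78, where 51.3% of tested genes were called, 29.7% positive and 21.6% negative. There the interaction was 1.53 for Gins1 (adjusted p = 7e-12), 1.23 for Pold1 (adjusted p = 3e-12), 1.20 for Mcm5 (adjusted p = 6.7e-13) and 1.10 for Mcm2 (adjusted p = 7e-12). Brca2 (0.11, adjusted p = 0.48), Slbp (0.08, adjusted p = 0.42), Orc1, Gins3 and Fen1 were not called in batch 1. Pold1 kept its call without any 1 library. The other calls did not. Cdt1 lost its own without wild-type vehicle replicate 4 or 5, wild-type IFNγ replicate 5, knockout vehicle replicates 1 to 3 or knockout IFNγ replicates 2 or 3 (adjusted p 0.054 to 0.065 for Cdt1). Gins2 and Rfc5 lost theirs without any 1 of knockout vehicle or knockout IFNγ replicates 1 to 3 or wild-type vehicle replicate 5, Gins2 also without wild-type vehicle replicate 3 and Rfc5 without replicate 1 (0.052 to 0.064 for Gins2 and 0.05 to 0.068 for Rfc5). Rrm1 kept its call only without knockout vehicle replicate 4 or 5, knockout IFNγ replicate 4 or 5 or wild-type vehicle replicate 5, and otherwise had 0.058 to 0.11. Without knockout vehicle replicate 5, 13 genes were positive, without knockout IFNγ replicate 5 there were 10, and without replicate 4 of that group 8. There were 2 without wild-type vehicle replicate 3 or 5, and 1 without any of knockout vehicle or knockout IFNγ replicates 1 to 3.

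For 24 of the 45 genes in wild-type and 31 in knockout cells, the difference between IFNγ and vehicle was called more negative in batches 2 and 3 than in batch 1. Other genes had a more negative difference that was not called. The SEs and p-values of these batch tests draw mostly on the spread among batch 1 replicates, since batches 2 and 3 hold 1 library per group each. They cover little of the spread between batches. The median of the 45 within-batch differences in wild-type cells was −0.94 in batch 1, −1.73 in batch 2 and −1.89 in batch 3, and in knockout cells −0.23, −0.93 and −1.21. The test of this, later batches minus batch 1, called the 24 lower and 3 higher in wild-type cells, where 35.6% of tested genes were called, 19.4% lower and 16.2% higher. With library totals in place of TMM it called 40 lower, and the median of all tested genes moved by −0.78. In knockout cells it called the 31 lower and none higher, where 29.0% of tested genes were called, 15.8% lower and 13.2% higher. The most negative values in wild-type cells were those of Brca2 (−4.44 ± 0.28 SE, edgeR adjusted p = 2.8e-08), Rrm2 (−3.26, adjusted p = 1.1e-06) and Mcm10 (−2.66, adjusted p = 7.6e-08). The 3 positive ones were Pcna (1.68 ± 0.16 SE, edgeR adjusted p = 9.2e-07), Rfc2 (1.24, adjusted p = 0.00015) and Cdt1 (0.93, adjusted p = 2.1e-05). In knockout cells the most negative were Cdc6 (−2.21 ± 0.29 SE, edgeR adjusted p = 3.3e-05), Rrm2 (−1.78, adjusted p = 0.00015) and Mcm6 (−1.71, adjusted p = 1e-06), and Pcna was not called (0.29, adjusted p = 0.18). Without knockout IFNγ replicate 5 the knockout test called 2 higher, and without knockout vehicle replicate 5 it called 1.

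The genes did not all take part. In wild-type cells Gins1 (−0.26, adjusted p = 0.52), Rfc1 (0.08, adjusted p = 0.79), Pola1 (−0.49, adjusted p = 0.16), Rpa1 (0.05, adjusted p = 0.84), Rrm1 (−0.17, adjusted p = 0.43), Chaf1b (0.08, adjusted p = 0.78) and E2f1 (0.01, adjusted p = 0.99) were called lower with IFNγ over all libraries and did not pass the test of a batch difference. Rfc2 was at 56.4 to 61 CPM under IFNγ in wild-type replicates 1 to 3 and at 125 and 79.6 CPM in those of batches 2 and 3, against 123 to 145 and 103 and 85.1 CPM under vehicle. For the genotype difference under IFNγ, 22 genes were higher and 4 lower in the later batches than in batch 1, where 30.2% of tested genes were called, 15.4% higher and 14.8% lower. Brca2 (3.19 ± 0.29 SE, edgeR adjusted p = 1.8e-06), Mcm10 (2.64, adjusted p = 1.5e-07) and Rrm2 (2.57, adjusted p = 2.3e-05) had the largest positive values, and Rfc2 (−1.23, adjusted p = 0.00026), Pcna (−0.76, adjusted p = 0.0019), Rpa1 (−0.69, adjusted p = 0.005) and Cdt1 (−0.59, adjusted p = 0.0015) were negative. With library totals in place of TMM 1 gene was negative, and without knockout IFNγ replicate 4 or 5 there were 7. These tests rest on the 4 IFNγ libraries with low TMM factors and high Malat1 described above, and with 1 library per group and batch, the batches and these library features cannot be told apart.

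**Figure D4:**
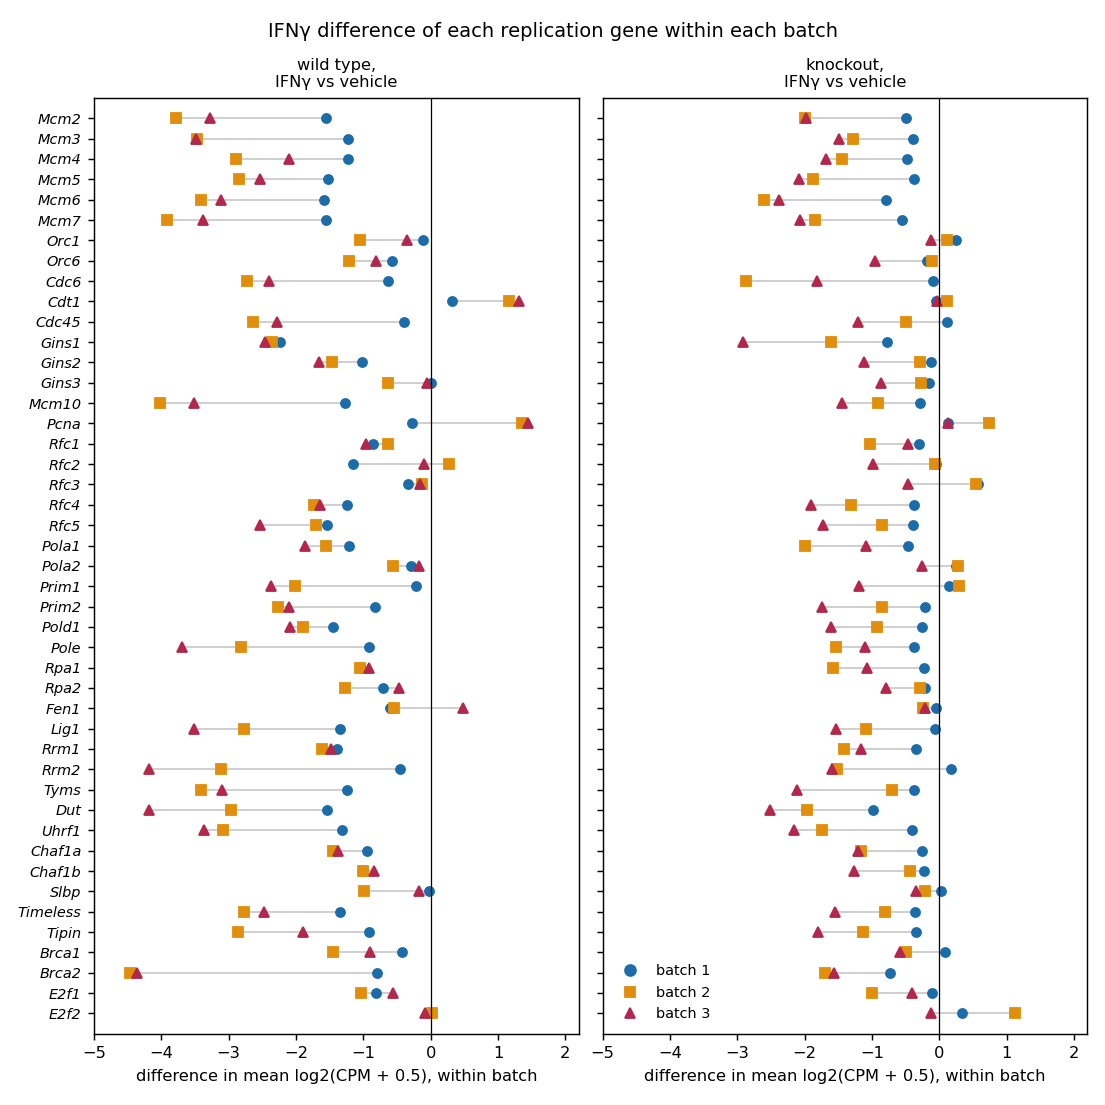
Difference between IFNγ and vehicle in mean log2(CPM + 0.5) within each batch (x axis) for the 45 genes (rows), in wild-type (left) and knockout (right) cells; symbols are the 3 batches and grey lines their range. In wild-type cells Pcna lies at −0.28, 1.35 and 1.45 and Gins1 keeps nearly the same place in all batches, and in knockout cells most batch 1 points lie near 0.

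The make-up of the helicase transcripts differed between genotypes under vehicle, where none of the 6 genes was called. Each gene's share of the summed CPM of Mcm2 to Mcm7 was compared between genotypes within each treatment. There were 12 exact permutation tests (two-sided, smallest possible p 0.0079), with Benjamini-Hochberg values over the 12, of which 8 were under 0.05. The permutations ignored batch, although libraries differed more between batches than within batch 1. A permutation within batches was not run. It would allow fewer arrangements and a larger smallest p, so the p-values below may overstate the evidence. Under vehicle Mcm3 made up 19.3% ± 0.628 (SD, n = 5; 18.8 to 20.3%) in wild-type and 26.5% ± 0.366 (26.1 to 26.9%) in knockout libraries (exact p = 0.0079, adjusted 0.014). Mcm2 made up 14.2% ± 0.368 and 10.5% ± 0.581, and Mcm5 16.4% ± 1.68 and 12% ± 0.205 (exact p = 0.0079 and adjusted 0.014 for each). The shares of Mcm3, Mcm2 and Mcm5 did not overlap between the groups of 5 libraries. Under IFNγ Mcm3 was at 19.8% ± 3.46 and 32.1% ± 3.97 and Mcm5 at 18.4% ± 2.71 and 12.4% ± 1.44, again exact p = 0.0079 and adjusted 0.014. Mcm7 had a higher share in knockout cells under IFNγ, 11.8% ± 0.83 and 15.6% ± 0.706, and Mcm6 a lower one, 24.4% ± 0.618 and 18.9% ± 3.97 (exact p = 0.0079 and adjusted 0.014 for each). Mcm2 was lower under IFNγ as well, 12.3% ± 1.1 and 10.3% ± 0.759 (exact p = 0.024, adjusted 0.036). Under vehicle Mcm7 was at 14.1% ± 1.23 and 16.3% ± 1.17 (exact p = 0.04, adjusted 0.053) and Mcm6 at 26.2% ± 1.02 and 24.9% ± 1.64 (exact p = 0.21, adjusted 0.23). The share of Mcm4 did not pass the test under vehicle (exact p = 0.64) or IFNγ (0.063, adjusted 0.076). Shares of 1 total move against each other, so they are not independent, and shares within a gene were compared between libraries, not between genes, since CPM does not account for length.

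**Figure D5:**
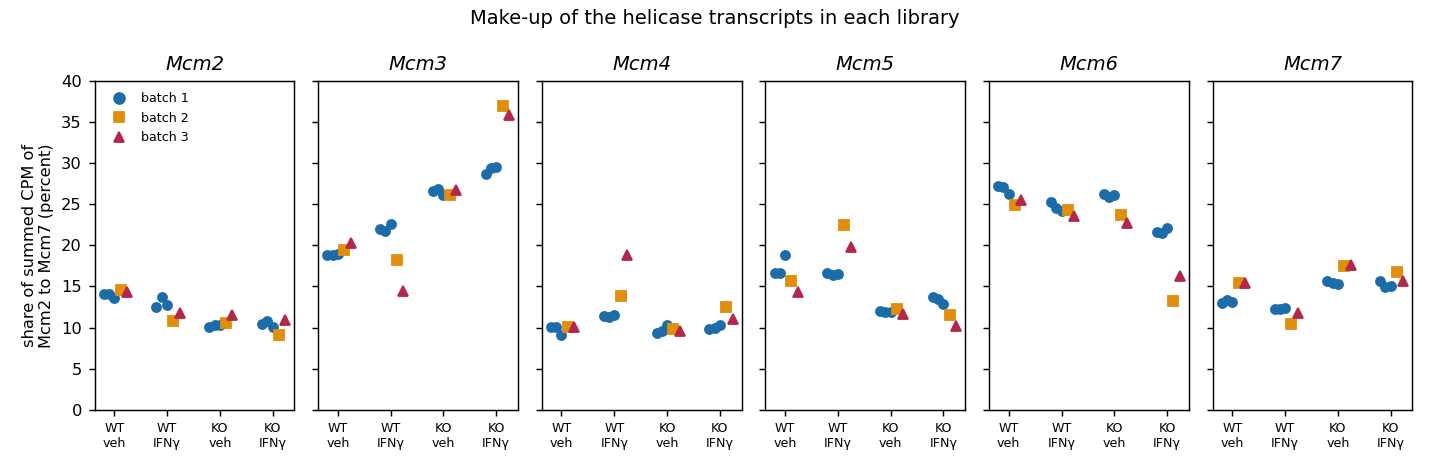
Share of each of Mcm2 to Mcm7 in their summed CPM, in percent (y axis), per library for the 4 groups (WT wild type, KO knockout, veh vehicle), with symbols for the 3 batches. Mcm3 lies at 18.8 to 20.3% in wild-type and 26.1 to 26.9% in knockout vehicle libraries, in all 3 batches.

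Over the 20 libraries most of the genes followed one another. The correlation of each gene's log2 level with the median of the others was 0.99 for Timeless and Lig1 and at least 0.9 for most. It was lowest for Cdt1 (−0.65), Pcna (−0.01) and E2f2 (−0.01), and also low for Rfc2 (0.48), Fen1 (0.60), Gins3 (0.62), Rfc3 (0.65), Pola2 (0.68) and Orc1 (0.77). These values share libraries, groups and batches and serve as a description. With group and batch removed, the correlation stayed at 0.97 for Timeless and 0.94 for Lig1. It was then 0.08 for Rfc1, 0.34 for Rpa1, 0.39 for E2f1, 0.40 for Chaf1b, −0.47 for Rfc2 and −0.66 for Pcna.

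Set against the E2F-type promoter letters, the 15 genes that carry them in the promoter window had a median log2 change under IFNγ in wild-type cells of −1.65, with 10 called lower and 1 (Cdt1) higher, and the 23 without them −0.99, with 19 lower. In knockout cells the medians were −0.87 and −0.47, and between genotypes under IFNγ 0.88 and 0.65. Among tested genes outside the 45, the 451 with the letters had a median of −0.26 in wild-type cells and the 9409 without −0.01, and 42.4% and 30.9% of them were called lower. Of the 15 genes of the 45 with the letters 66.7% were called lower, and of the 23 without 82.6%. Of the 8 genes whose stretches are printed, Orc1, Gins3 and Rfc3 carry the letters as well and were not called in wild-type cells.

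The wider pathway was read from a list of 80 further genes, of which 79 passed the filter (E2f7 did not). With IFNγ 59 of the 79 were called lower and 8 higher in wild-type cells, with a median of −0.85, and 43 lower and 4 higher in knockout cells, with a median of −0.53. Among regulators of S-phase entry, Skp2, which targets p27 for destruction, was lower in both genotypes (−1.26, adjusted p = 8.7e-06, and −0.95, adjusted p = 0.00031), as was E2f4 (−0.92, adjusted p = 1.1e-06, and −0.56, adjusted p = 0.00048). E2f3 was higher in wild-type cells (0.43, adjusted p = 0.00035) and not called in knockout cells (0.08, adjusted p = 0.49), and the difference between the genotypes was not called (−0.35, adjusted p = 0.099). Of the checkpoint genes, the kinase Atr (−1.72, adjusted p = 8.3e-07, and −1.17, adjusted p = 0.00013) and the helicase Blm (−1.46, adjusted p = 5.4e-09, and −0.40, adjusted p = 0.008) were lower, and Rad9a, of the checkpoint clamp, was higher (1.04, adjusted p = 2.6e-06, and 0.72, adjusted p = 0.00031). The histone chaperone Nasp (−1.54, adjusted p = 5.8e-08, and −0.66, adjusted p = 0.0012) and the maintenance methyltransferase Dnmt1 (−0.86, adjusted p = 2.1e-06, and −0.59, adjusted p = 0.00031) were lower in both. Asf1a was higher in wild-type cells (0.67, adjusted p = 0.046) and not called in knockout cells (0.04, adjusted p = 0.91), with an interaction that was not called (−0.63, adjusted p = 0.38). Of nucleotide metabolism Shmt1 was lower in both (−2.02, adjusted p = 1.3e-06, and −1.24, adjusted p = 0.00047), and Dck was lower in wild-type cells (−1.76, adjusted p = 1.8e-06) and not called in knockout cells (−0.26, adjusted p = 0.34).

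The brakes on replication split. Cdkn1a, which encodes the inhibitor p21, was higher with IFNγ in wild-type (0.91, adjusted p = 2e-06) and knockout cells (0.77, adjusted p = 3.3e-05), as was Cdkn1b, which encodes p27 (0.79, adjusted p = 0.00017, and 0.57, adjusted p = 0.0051). Samhd1, which degrades deoxynucleotides, was higher with IFNγ in both too (1.97, adjusted p = 0.00044, and 2.09, adjusted p = 0.0004), with an interaction that was not called (0.12, adjusted p = 0.93). Geminin (Gmnn), the inhibitor of Cdt1, was lower in both (−0.85, adjusted p = 2.9e-05, and −0.43, adjusted p = 0.015), as was Dtl, the ligase adaptor that marks Cdt1 for destruction (−1.70, adjusted p = 8.5e-05, and −0.83, adjusted p = 0.027). Both moved opposite to the Cdt1 transcript in wild-type cells over all libraries. In batches 1, 2 and 3 the wild-type differences of Cdt1 were 0.31, 1.16 and 1.31. Those of Gmnn were −1.10, −0.72 and −0.15, so it fell least where Cdt1 rose most, and those of Dtl were −1.04, −2.72 and −3.38. Whether these transcripts are related was not tested. Between genotypes under vehicle 6 of the 79 were higher and 6 lower, with a median of 0.15, among them Mtbp, which takes part in origin firing (1.02, adjusted p = 2.2e-05), and Atrip, the partner of Atr (−0.78, adjusted p = 0.002). Under IFNγ 33 were higher and 4 lower in knockout cells, with a median of 0.41, Blm (1.22, adjusted p = 1.3e-07), Dtl (1.23, adjusted p = 0.0026) and Gmnn (0.69, adjusted p = 0.00051) among the higher ones and Asf1a (−0.86, adjusted p = 0.019) among the lower. The interaction was called for 3, all positive, Blm (1.07, adjusted p = 0.00074), Nasp (0.88, adjusted p = 0.014) and Dck (1.49, adjusted p = 0.0067). The background shares of called genes are those given above for the same comparisons.

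A list of 20 genes of mitosis, a later step of the cell cycle, is given beside them. With IFNγ all 20 were called lower in wild-type cells and 12 in knockout cells, none higher, with medians of −2.22 and −0.77, where 29.9% and 21.8% of tested genes were called lower. Under IFNγ all 20 were higher in knockout cells, with a median of 1.65, where 20% of tested genes were called higher, and 14 had a positive interaction, against 3.64%. Under vehicle 2 were higher, against 12.5% of tested genes.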

How the data were processed

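RNA of 20 libraries was measured by poly(A) RNA sequencing. The authors deposited raw read counts per Ensembl gene, and per the submitters' processing notes FastQC, Trim Galore, STAR, DESeq2 and the GRCm39 build were used. No version, counting tool, annotation release or strand option is named in the labels, so overlapping or near-identical genes may share reads. Besides the overlaps named above, protein-coding genes on the other strand overlap Orc6 (Vps35), Lig1 (Zswim9) and Chaf1a (Ubxn6). Symbols were found for 51948 of the 56941 identifiers.

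The deposited counts were tested as they stand with edgeR 4.0.16 in R 4.3.3 (TMM scaling, filterByExpr, robust quasi-likelihood fit, group and batch as terms, 14 residual degrees of freedom), with all 20 libraries sharing 1 estimate of the spread. P-values were adjusted by Benjamini-Hochberg over the 13755 tested genes, and a gene was called at an adjusted p under 0.05. A second fit with group by batch set (batch 1 against batches 2 and 3, 11 residual degrees of freedom) gave the tests of batch differences. Most of these degrees of freedom come from batch 1 replicates, so its SEs and p-values cover little of the spread between batches. The fit was tested on simulated counts with no batch effect and the same planted change in every batch. That test does not cover responses that differ between batches. Within-batch values are differences in mean log2(CPM + 0.5) and have no replicate check in batches 2 and 3. The biological coefficient of variation was 24.2%, and depth ran from 15866749 to 29157740 reads. Counts of replicates differed by more than sampling noise, so no library was a copy.

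The 45 genes and all lists were chosen with earlier results of these data known. Every gene is given by role. Values by library are given for 17 genes named in the design and for the 3 called genes with the largest change each way in each comparison. From the pathway list at most 2 called genes each way per sublist and comparison were taken, but not from every sublist. For the IFNγ response most were those with the smallest p in wild-type cells, with knockout values beside them. Left out in knockout cells were for example Nme1 (−1.09, edgeR adjusted p = 0.00044), E2f6 (−0.67, edgeR adjusted p = 0.00034) and Cdca7 (−1.76, edgeR adjusted p = 0.00034). Between genotypes under vehicle, Pole3 (0.85, edgeR adjusted p = 8.2e-05) and Top1 (−0.44, edgeR adjusted p = 0.001) were among those left out. For the IFNγ response none is named from the further origin and helicase or polymerase and fork genes. In wild-type cells Dbf4 (−1.60, edgeR adjusted p = 7e-07) and Pold2 (−1.73, edgeR adjusted p = 2.3e-07) were called lower there and Pold3 higher (0.43, edgeR adjusted p = 0.01). The checkpoint gene Hus1, higher in wild-type cells (0.70, edgeR adjusted p = 0.033), was also left out. Promoter windows are RefSeq's on GRCm38.p6, another build than that of the counts, and were matched by symbol. Alternatives were RLE factors, plain library totals, no filter, DESeq2 1.42.0, limma-voom (limma 3.58.1), no batch term, a replicate block, batch 1 alone, batches 2 and 3 alone, and leaving out each library.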

Additional observations from a re-analysis of the deposited data

Results flagged for a closer look

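The response to IFNγ differed between genotypes, by the interaction test in edgeR over all 20 libraries, for 5 of the 45 genes, where 6.50% of tested genes were called. On the log2 scale, knockout minus wild type, the differences were −0.71 for Cdt1 (adjusted p = 0.029), 0.85 for Gins2 (adjusted p = 0.029), 0.98 for Rfc5 (adjusted p = 0.029), 0.97 for Pold1 (adjusted p = 0.019) and 0.71 for Rrm1 (adjusted p = 0.049). Of these, Pold1 alone kept its call without any 1 library.

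The Rfc1 level of wild-type IFNγ replicate 5, the library of batch 3, was 57.9 CPM, below the 82.7 to 92.4 CPM of the other 4 libraries of its group. The gap was 0.72 of the group's range, above Dixon's critical value of 0.71. This was 1 of 68 groups checked for the genes given library by library. Over all 45 genes, 3 of 180 groups were past that value. Chance gives about 1 in 20 only if the libraries of a group are interchangeable. Here each group joined 3 batch 1 libraries with single libraries of the later batches. Where those later libraries lay apart together, they hid each other from the test. The 3 of 180 therefore cannot be set against the chance rate.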

How the results depend on the processing

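Each comparison was repeated under 29 alternatives. Of the calls named above, 28 of 37 for IFNγ in wild-type cells, 1 of 27 in knockout cells, 1 of 6 between genotypes under vehicle, 8 of 32 under IFNγ and 0 of 5 interactions were kept in every setting. In wild-type cells the IFNγ median of the 45 genes kept its sign throughout and was −2.02, with 2 called higher, in batches 2 and 3 alone. In knockout cells 0 were called higher with plain library totals, with no filter, with no batch term and in batches 2 and 3 alone, 8 were in batch 1 alone, and 1 was called lower with no batch term. Between genotypes under vehicle, higher and lower calls were 11 and 1 with no filter and 2 and 1 with no batch term. With limma-voom 7 were higher, with plain library totals 1 was lower, in batch 1 alone 12 were higher and 18 lower, and in batches 2 and 3 alone 0 were lower. Under IFNγ 11 were higher with no batch term and 5 lower in batch 1 alone. Positive interactions numbered 0 with plain library totals, 16 with no filter, 11 with DESeq2, 7 with limma-voom and 39 in batch 1 alone. There were 0 of either sign with no batch term, and 0 negative ones in batches 2 and 3 alone. Of the tests of batch differences, the wild-type response had 40 lower and a median of −1.29 with plain library totals, the vehicle difference 26 higher with DESeq2, and the IFNγ difference 1 lower with plain library totals. Except where fewer libraries were used, the cause of these shifts was not tested.

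Replicate numbers paired nothing beyond batch: deviations of libraries with the same number within batch 1 correlated between −0.09 and 0.07 over 18 pairs. With a replicate block in place of batch, higher and lower calls were 1 and 35 for IFNγ in wild-type cells, 1 and 22 in knockout cells, 4 and 1 under vehicle and 28 and 1 under IFNγ, and 1 and 0 for the interaction.

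With each library left out in turn, the ranges were as follows. For IFNγ in wild-type cells, 1 was called higher throughout, 35 to 38 lower, and the median ran from −1.42 to −1.12. In knockout cells it was 0 to 2 higher, 16 to 28 lower and −0.77 to −0.45. Under vehicle 2 to 8 were higher and 1 to 4 lower, with medians of 0.02 to 0.27. Under IFNγ 24 to 31 were higher and 1 to 2 lower (2 without knockout IFNγ replicate 4), with medians of 0.68 to 0.90. For the interaction 1 to 13 were positive and 0 to 1 negative, with medians of 0.46 to 0.87. For the batch difference of the wild-type response, 3 were higher, 22 to 29 lower and the median was −0.84 to −0.57. For that of the knockout response, 0 to 2 were higher (2 without knockout IFNγ replicate 5, 1 without knockout vehicle replicate 5), 26 to 35 lower, and the median was −1.05 to −0.72. For the vehicle difference 1 to 33 were higher (33 without knockout IFNγ replicate 5) and 0 lower, with medians of 0.45 to 0.75. For the IFNγ difference 19 to 27 were higher and 4 to 7 lower (7 without knockout IFNγ replicate 4 or 5), with medians of 0.42 to 0.80.

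Genes that changed sign and were called in at least 1 of the settings compared are as follows. For IFNγ in wild-type cells these were Pcna (−0.30 in batch 1 alone) and Rfc2 (0.09 in batches 2 and 3 alone), and in knockout cells Cdc45 (0.14), Prim1 (0.18) and Rrm2 (0.20) in batch 1 alone. Under vehicle, in batch 1 alone, they were Cdc6 (−0.31), Mcm10 (−0.13), Rpa1 (−0.17), Lig1 (−0.30), Uhrf1 (−0.31), Slbp (−0.24) and Timeless (−0.23). Under IFNγ they were Prim1 (−0.23) and Slbp (−0.16) in batch 1 alone and Rfc2 (−0.23) and Rpa1 (−0.05) in batches 2 and 3 alone, and for the interaction Pcna (0.45 in batch 1 alone). Genes called in neither setting changed sign too, in batch 1 alone for example Brca1 (0.10) and Slbp (0.04) with IFNγ in knockout cells and Rrm2 (−0.06), Dut (−0.12) and Rpa2 (−0.05) between genotypes under IFNγ. Fen1 was counted at or below 1.78 CPM in every library, and how far the genes that overlap it share its reads was not tested.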
